A study of Mus musculus with 6 samples.

Results

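The genes described here encode the BCL2 family, caspases and other regulators of apoptosis, in splenic B cells of p80HT transgenic mice and of their WT littermates. The 31 genes were listed by name, with no threshold on a measured value, although earlier results of these arrays were known when the list was made. Each was read at its probeset on the Affymetrix Mouse Gene 1.0 ST array that carries 1 gene symbol only, the brightest over all 6 arrays where a gene has several. By this rule 30 of the 31 were measured, out of 19938 genes in all, and Bax is not analysed here. The tested mice carry the human coding sequence of p80HT, a C-terminally truncated NF-κB2 found in lymphoma, driven by an H-2Kb promoter with an immunoglobulin μ enhancer, so that T cells express it as well as B cells. There were 3 p80HT mice, each with monoclonal immunoglobulin (M-protein) in its serum, and 3 WT littermates, all 1 year old on a C57BL/6J x SJL/J background. B cells were taken from spleen on magnetic beads with an antibody to B220, and each mouse has 1 array.

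Apoptosis in lymphocytes runs along a pair of routes. In the mitochondrial route, BH3-only proteins such as Bim bind the survival proteins Bcl-2, Bcl-xL, Bcl-w and Mcl-1 and set free the effectors Bak and Bax, which open the outer mitochondrial membrane. Cytochrome c then leaves the mitochondrion and, with Apaf-1, activates caspase-9. In the death receptor route, the adaptor Fadd recruits caspase-8, and the caspase-8 homologue c-FLIP blocks it there. B cells depend on signals from the B cell receptor, from BAFF and from NF-κB to keep survival proteins above the death proteins, and Bim is known as the main BH3-only protein that removes B cells when those signals fail.

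All signals are log2 values, and every difference is the p80HT mean minus the WT mean in log2 units. The words rose and fell are kept for genes that limma put past 1.5-fold at an unadjusted p below 0.01, the threshold of the study's methods. The adjusted p is Benjamini-Hochberg over all 19938 genes. At this threshold 1.22% of all genes rose and 0.968% fell, 0.0552% had an adjusted p under 0.05, and in 20.8% the p80HT and WT arrays did not overlap. With each array centred on its median, 183 genes rose and 342 fell, where 243 and 193 did so as deposited. With 3 mice a group, the smallest p that exact permutation allows for 1 gene is 0.1. The array of p80HT replicate 3 stands apart from the other 5, with correlations to them across genes of 0.914 to 0.925, while those 5 correlate at 0.981 or above. The summed signals of gland, stroma, T cell, NK cell and macrophage markers were highest on it and those of neutrophil and B cell markers lowest, with single genes that went the other way (the T cell marker Cd2 was lowest there). The summed signal of 8 salivary and lacrimal gland genes was 16.17 (log2) there and between 9.60 and 9.99 on the others, and that of 8 stroma genes was 13.65 against at most 10.81. The 9 measured T cell markers summed to between 13.47 and 14.49 on p80HT arrays and between 12.83 and 13.09 on WT arrays, with 2 of them risen, and the 10 macrophage markers to between 13.50 and 15.23 on p80HT arrays and between 13.04 and 13.41 on WT arrays, again with 2 risen. The 9 measured B cell markers summed to between 13.98 and 15.40 on p80HT arrays and between 15.59 and 15.79 on WT arrays. None passed the threshold, although their differences ran from -1.99 (Cr2) to -0.40 (Cd22). Cr2, Fcer2a (-1.80) and Ebf1 (-1.21) were lower on every p80HT array than on any WT array. So were Pax5, Cd79b and Cd22 by narrow gaps, while the groups overlapped for Cd79a and Ms4a1. On p80HT replicates 1 and 2, Blk was above all WT arrays. The T cell gene Cd3e was at 10.75 to 12.29 on the p80HT arrays and at 9.41 to 9.83 on the WT arrays, and of the macrophage and NK cell markers Vsig4 and Klrb1c were dim on all arrays. In such bulk samples, fewer cells of a type and less RNA per cell cannot be told apart. Results below are therefore also given without p80HT replicate 3. The terms p80HT B cells and WT B cells stand for the B220-selected samples as a whole, with any other cells in them.

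In p80HT B cells, 2 of the 30 members rose, Pawr and Cflar, and none fell, where 1.22% of all genes rose and 0.968% fell. Bcl2l11 was lower on every p80HT array than on any WT array and missed the 1.5-fold limit narrowly. No member passed an adjusted p under 0.05 in limma or in the ordinary analysis of variance. An unadjusted p under 0.05 in limma was reached by 3 of the 30 members, namely these 3 genes. It was reached by 2042 of all 19938 genes, a similar share. The other 27 members differed by between -0.34 (Dffb) and 0.34 (Bcl2l1). The median absolute difference was 0.13 over the members, against 0.14 over all genes. In 8 of the 30 members the groups did not overlap, 5 of them higher and 3 lower in p80HT B cells, which is 26.7% of the members beside 20.8% of all genes.

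Pawr encodes Par-4, a leucine zipper protein that promotes apoptosis in several cell types and antagonises atypical protein kinase C. Its signal was 8.28, 8.26 and 8.40 on the p80HT arrays, against 7.64, 7.38 and 7.42 on the WT arrays. The 3 p80HT values lie close together and well clear of the WT values. The mean was 8.32 ± 0.08 in p80HT B cells and 7.48 ± 0.14 in WT B cells (SD, n = 3 each), a difference of 0.84 with a standard error of 0.13 (limma, unadjusted p = 0.00032, adjusted p = 0.115). It was the most changed member. Without p80HT replicate 3 the difference was 0.79 with an adjusted p of 0.00474 in limma, and over the 14 alternatives tried this adjusted p ran from 0.00474 to 0.736. Pawr is on the study's own list of altered genes from these arrays, so its place among the members is not independent of these values. The summed T cell, NK cell, macrophage and red cell markers were also higher in every p80HT mouse than in any of the WT mice. The summed B cell markers were lower in every p80HT mouse. Of the 6 NK cell markers, only Nkg7 and Klrk1 were singly higher on every p80HT array than on any WT array. Gzma had a lower p80HT mean (-0.18), and Ncr1 was highest on WT replicate 3 (8.82). The red cell sums were 10.22 to 11.13 on p80HT arrays and 9.41 to 9.57 on WT arrays, and the NK cell sums 11.25 to 12.34 on p80HT arrays and 10.78 to 11.11 on WT arrays. Their part in the values of Pawr, of Cflar, of Bcl2l11 and of the other genes below was not tested.

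Cflar encodes c-FLIP, which keeps caspase-8 from being activated at death receptors and is a known NF-κB target. At the brightest of its 3 probesets, compared below, it stood at 9.87, 9.57 and 9.91 on the p80HT arrays, against 8.82, 9.30 and 9.23 on the WT arrays. The groups did not overlap, and WT replicate 1 was the lowest of all. The means were 9.79 ± 0.19 in p80HT B cells and 9.12 ± 0.26 in WT B cells (SD, n = 3 each), a difference of 0.67 with a standard error of 0.18 (limma, unadjusted p = 0.00648, adjusted p = 0.297). The call was lost without WT replicate 1 (0.52), WT replicate 3 (0.72) or p80HT replicate 1 (0.63), and it held without p80HT replicate 3 (0.60). It was also lost in the ordinary analysis of variance, with the replicate block, with median centring and with the mean of its probesets, and over 14 alternatives its adjusted p ran from 0.0643 to 0.958.

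**Figure D1:**
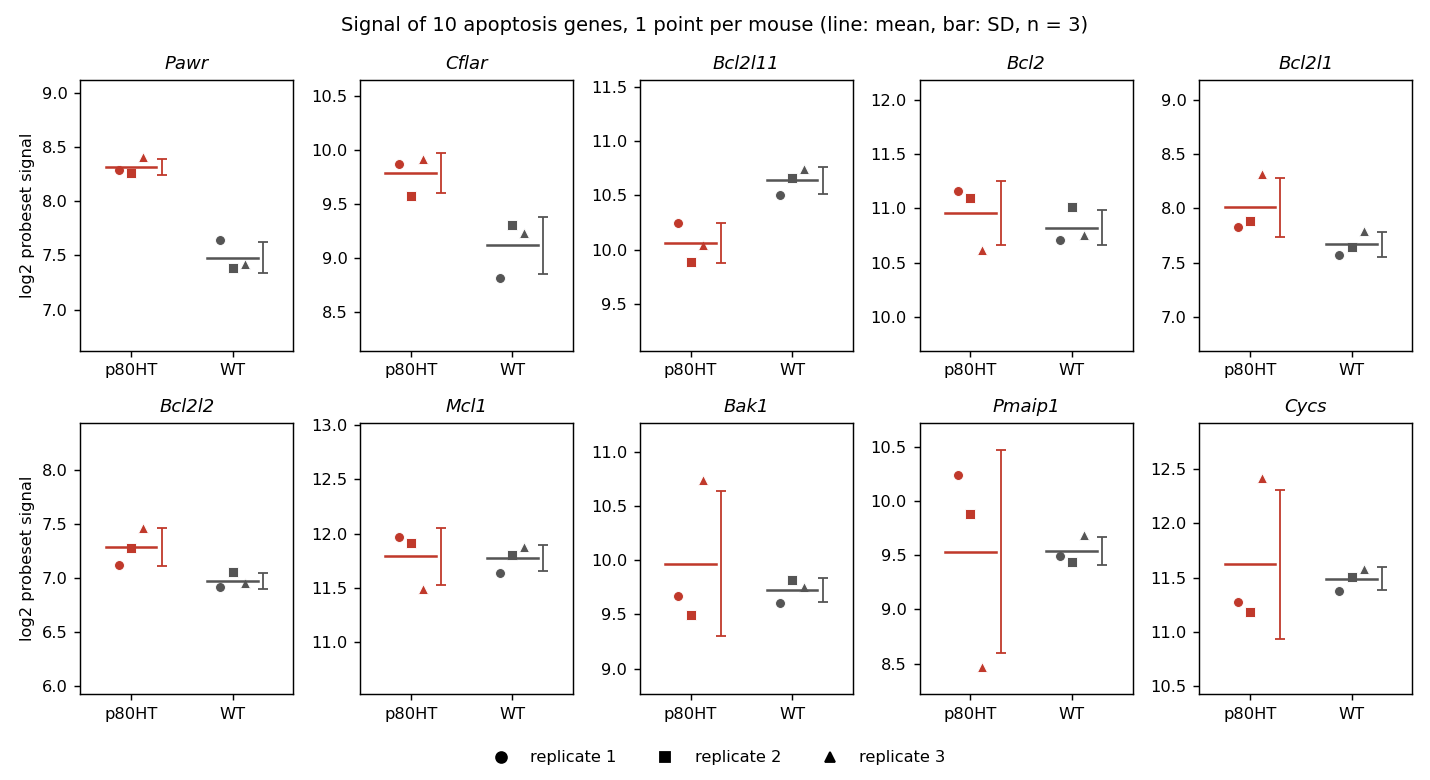
Log2 probeset signal (vertical axis, the same height in log2 units in every panel) of 10 members, 1 point per mouse, p80HT in red left of WT in grey, with lines for means and bars for SDs (n = 3). Pawr and Cflar lie higher and Bcl2l11 lower on all p80HT arrays, while p80HT replicate 3 (triangles) is far from the other mice for Bak1, Pmaip1 and Cycs.

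The 4 BCL2-like survival genes did not pass the threshold. Bcl2, whose product holds Bim in check in mature lymphocytes, was at 11.16, 11.10 and 10.62 on the p80HT arrays, against 10.71, 11.01 and 10.75 on the WT arrays. Its p80HT replicate 3 was the lowest array of all and the other p80HT arrays the highest, so the groups overlapped. The difference was 0.14 (95% interval -0.29 to 0.57), and 0.31 without that array (limma, unadjusted p = 0.0309, adjusted p = 0.184). Mcl1, which mature B cells and plasma cells need to survive, was at 11.97, 11.92 and 11.49 on the p80HT arrays, against 11.64, 11.80 and 11.88 on the WT arrays. Here too p80HT replicate 3 was the lowest and the other p80HT arrays the highest. The difference was 0.02 (95% interval -0.37 to 0.41), and 0.17 without p80HT replicate 3.

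Bcl2l1 and Bcl2l2 showed the opposite position of that array. Bcl2l1 encodes Bcl-xL, which activated B cells induce through NF-κB, and its signal was 7.83, 7.88 and 8.32 on the p80HT arrays, against 7.57, 7.65 and 7.79 on the WT arrays. The groups did not overlap, by a narrow gap, and p80HT replicate 3 was the highest. The difference was 0.34 (95% interval -0.05 to 0.73, adjusted p = 0.542 in limma), and 0.19 without p80HT replicate 3. Bcl2l2, encoding Bcl-w, was at 7.12, 7.28 and 7.46 on the p80HT arrays, against 6.91, 7.06 and 6.95 on the WT arrays. Again no p80HT array reached down to a WT value, with a difference of 0.31 (95% interval -0.01 to 0.63) and 0.22 without p80HT replicate 3. Xiap, a direct inhibitor of active caspases, was at 8.76, 8.62 and 9.42 on the p80HT arrays, against 8.78, 9.05 and 9.16 on the WT arrays. Its p80HT replicate 3 was the highest and the other p80HT arrays the lowest of all. The difference of -0.06 became -0.31 without p80HT replicate 3 (adjusted p = 0.215 in limma).

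Among the 8 BH3-only genes, none rose and none fell. Bcl2l11, which encodes Bim, was at 10.25, 9.89 and 10.04 on the p80HT arrays, against 10.51, 10.66 and 10.75 on the WT arrays. All 3 p80HT values lay below the lowest WT value, and p80HT replicate 3 lay between the other p80HT arrays. The means were 10.06 ± 0.18 in p80HT B cells and 10.64 ± 0.12 in WT B cells (SD, n = 3 each), a difference of -0.58 with a standard error of 0.14, where 1.5-fold is 0.585 (limma, unadjusted p = 0.0049, adjusted p = 0.28). Just short of that limit with all arrays, Bcl2l11 passed it without p80HT replicate 1 (-0.68) or WT replicate 1 (-0.65) and with each array centred on its median (-0.67). The unadjusted p in limma was above 0.01 without p80HT replicate 2 (0.0209), WT replicate 2 (0.0209) or WT replicate 3 (0.0272). Without p80HT replicate 3 the difference was -0.57 and the adjusted p 0.0429 in limma, the lowest over 14 alternatives, of which the highest was 1.0. In the fit without p80HT replicate 3 4.67% of all genes and 2 of the 30 members, Pawr and Bcl2l11, had an adjusted p under 0.05.

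The other 7 BH3-only genes had differences between -0.20 (Bmf) and 0.13 (Bik). Pmaip1, which encodes Noxa, a p53 target that binds Mcl-1, was at 10.24, 9.88 and 8.47 on the p80HT arrays, against 9.49, 9.44 and 9.68 on the WT arrays. It is described because p80HT replicate 3 was far below the rest and the other p80HT arrays above all WT arrays, a choice made after its values were seen. Its SD was 0.94 in p80HT B cells and 0.13 in WT B cells. The difference of -0.01, with a standard error of 0.42, became 0.52 without p80HT replicate 3, with an unadjusted p of 0.00328 and an adjusted p of 0.0597 in limma, below 1.5-fold. Bmf, a sensor of cytoskeletal stress, was also lowest on that array (8.40), as were Bad, Bid and Hrk. Bbc3, which encodes the p53 target Puma, differed by 0.10, with overlapping groups.

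The measured pore-forming effectors did not pass. Bak1 was at 9.67, 9.50 and 10.74 on the p80HT arrays, against 9.60, 9.81 and 9.75 on the WT arrays. Its higher p80HT mean came from replicate 3 alone, and the difference of 0.24 (95% interval -0.49 to 0.98) turned to -0.14 without that array. Bok, a BCL2 relative that can act without Bak and Bax, averaged 8.11 ± 0.14 in p80HT B cells and 7.95 ± 0.20 in WT B cells. The 6 caspase and adaptor genes differed by between -0.15 and 0.17. Casp8, the initiator caspase that c-FLIP restrains, was at 11.44, 11.36 and 11.26 on the p80HT arrays, against 11.43, 11.44 and 11.44 on the WT arrays, a difference of -0.08 (95% interval -0.36 to 0.19). Its adaptor Fadd differed by 0.06 (95% interval -0.30 to 0.41). Apaf1, the scaffold of the apoptosome, and Casp9, the caspase it activates, differed by 0.17 and 0.09. Casp2, a caspase linked to DNA damage, had p80HT arrays that were all below the WT arrays by a small amount, with means of 10.44 ± 0.08 in p80HT B cells and 10.60 ± 0.07 in WT B cells (difference -0.15, adjusted p = 0.717 in limma). The executioner Casp6 differed by -0.06, and by -0.27 without p80HT replicate 3.

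Of the 5 genes whose proteins leave the mitochondrion, none rose or fell. Htra2 and Diablo, which both relieve the inhibition of caspases by Xiap, differed in opposite directions by small amounts. Htra2 averaged 10.43 ± 0.04 in p80HT B cells and 10.29 ± 0.04 in WT B cells, and Diablo 9.09 ± 0.01 in p80HT B cells and 9.21 ± 0.10 in WT B cells. Their groups did not overlap in either case, but the differences of 0.15 and -0.13 had adjusted p-values of 0.714 and 0.789 in limma. Cycs, encoding cytochrome c and read at its brightest probeset, and Aifm1, a flavoprotein of the inner membrane, were highest on p80HT replicate 3. Their differences of 0.13 and 0.08 became -0.26 and -0.18 without that array. Endog, a mitochondrial nuclease, differed by 0.02. Dffb, the nuclease that cuts DNA between nucleosomes, was at 7.84, 8.37 and 7.93 on the p80HT arrays, against 8.38, 8.34 and 8.43 on the WT arrays. The WT values were tight and p80HT replicate 2 lay among them, so that the difference of -0.34 did not pass (95% interval -0.73 to 0.05, adjusted p = 0.542 in limma). Dffa, its inhibitor and chaperone, averaged 8.99 ± 0.03 in p80HT B cells and 9.13 ± 0.13 in WT B cells.

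**Figure D2:**
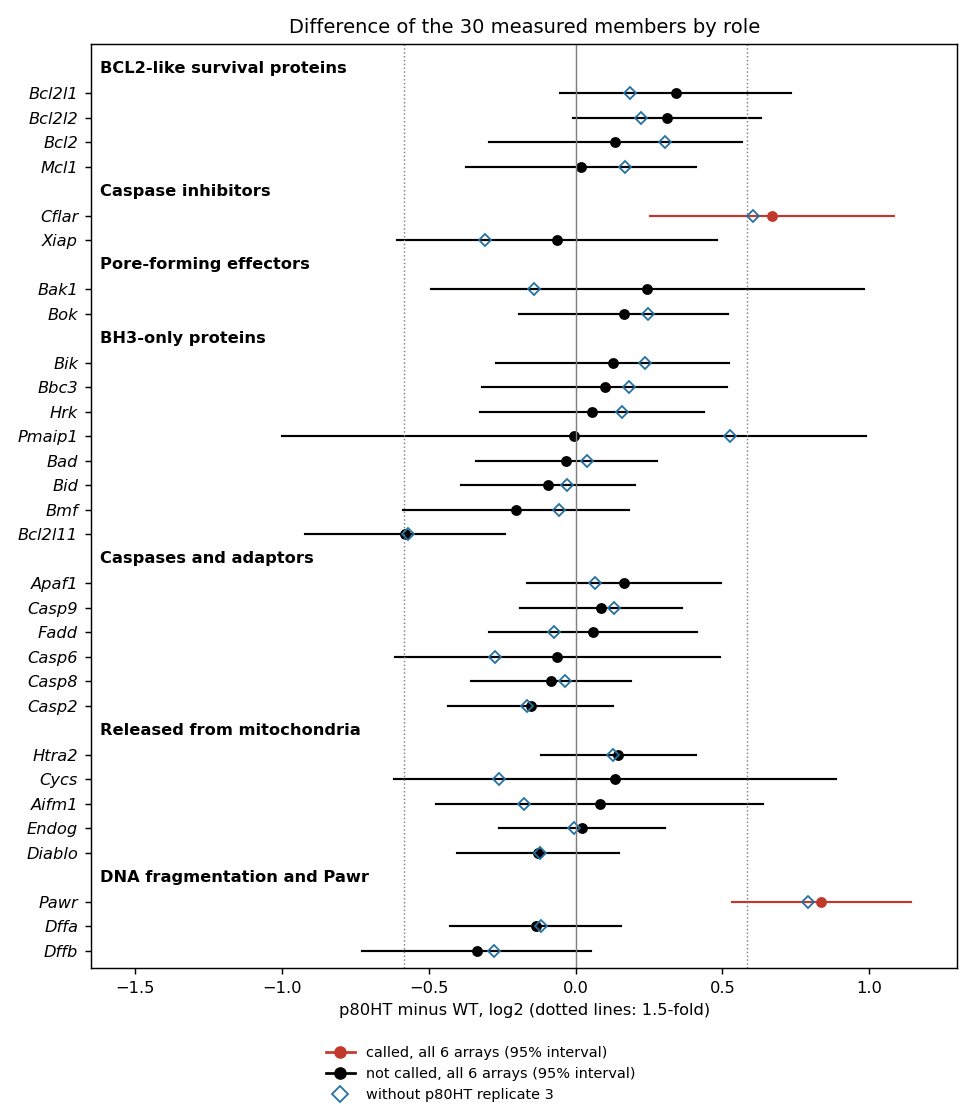
Difference p80HT minus WT (horizontal axis, log2) of the 30 measured members, grouped by role, as points with 95% intervals from limma over all 6 arrays, in red where called, and as open diamonds without p80HT replicate 3. Pawr (0.84) and Cflar (0.67) lie to the right of the 1.5-fold line and Bcl2l11 (-0.58) almost on the left line, while Bak1, Cycs, Xiap and Pmaip1 shift when p80HT replicate 3 is left out.

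The members were also set against each other as survival and death genes. The 6 survival members (Bcl2, Bcl2l1, Bcl2l2, Mcl1, Cflar and Xiap) had a median difference of 0.22 with 5 of 6 above 0, the 23 death members a median of 0.06 with 13 of 23 above 0, and all genes a median of -0.02. Without p80HT replicate 3 the medians were 0.20 for survival members, -0.03 for death members and 0.04 for all genes. Averaged over the 6 survival members, the signal stood above the WT mean by 0.23, 0.17 and 0.31 on the p80HT arrays, against -0.15, 0.09 and 0.07 on the WT arrays. The lowest p80HT array was thus above the highest WT array, and this remained so without Cflar (0.12, 0.11 and 0.21 on the p80HT arrays, against -0.13, 0.07 and 0.06 on the WT arrays). This separation depended on the scaling. With each array centred on its median, the survival average was 0.16, 0.07 and 0.20 on the p80HT arrays, against -0.20, 0.12 and 0.08 on the WT arrays, so that the groups overlapped, as they did without Cflar, and the survival median was 0.13. As deposited, the same average over the 23 death members was 0.01, 0.01 and 0.04 on the p80HT arrays, against -0.01, -0.03 and 0.03 on the WT arrays, and the groups overlapped. The difference between the classes was not tested, since the members were chosen with results of these arrays known.

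How the members varied among arrays followed the array of p80HT replicate 3. It held the highest or lowest of the 6 values for 22 of the 30 members (73.3%), the highest in 12 and the lowest in 10, and for 75.9% of all genes. No other array was at an end as often, with 13 of 30 members for p80HT replicate 2 and between 3 and 9 for the others. The members furthest from the mean of p80HT replicates 1 and 2 on that array were Cycs (1.19 higher), Bak1 (1.15 higher), Aifm1 (0.78 higher), Xiap (0.73 higher) and Pmaip1, which was lower (-1.59). For Cycs this holds at its brightest probeset, while another of its probesets read 6.38 there, the lowest of its 6 values. The summed gland, stroma, T cell and macrophage markers were highest and the summed B cell markers lowest on the same array, and their part in these values was not tested. Pawr, Cflar and Bcl2l11 differed there from the mean of the other p80HT arrays by 0.13, 0.19 and -0.03.

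**Figure D3:**
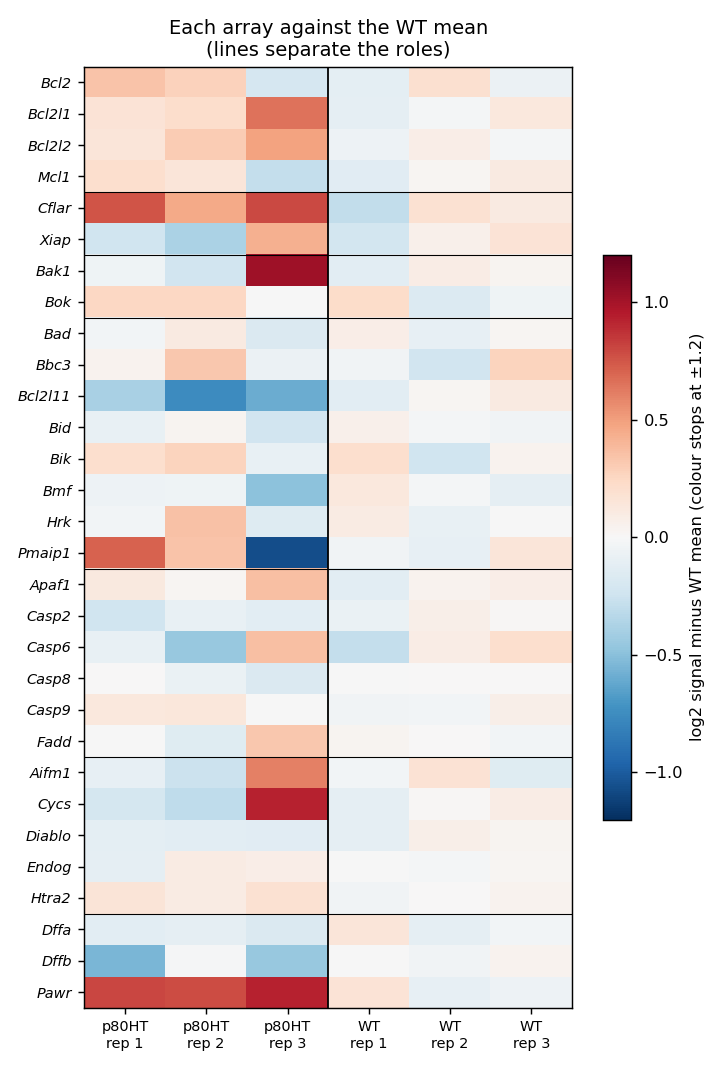
Log2 signal of each member (rows, separated by role) on each array (columns, p80HT left of WT) minus the mean of the 3 WT arrays, in colour. Pawr and Cflar are red and Bcl2l11 blue on all 3 p80HT arrays, and the darkest cells, of Bak1, Cycs and Pmaip1, stand in the column of p80HT replicate 3.

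For 28 of the measured members there was 1 probeset, and for Cflar and Cycs there were 3. All 3 Cflar probesets were higher on every p80HT array than on any WT array. Their differences were 0.67 at the brightest, 0.42 at the second probeset (9.17, 9.03 and 9.41 on p80HT arrays, against 8.47, 8.94 and 8.93 on WT arrays) and 0.66 at the third (8.51, 8.30 and 8.96 on p80HT arrays, against 7.79, 8.02 and 7.98 on WT arrays). Of these the second did not pass (unadjusted p = 0.0493 in limma), and the third did (unadjusted p = 0.00961). The Cycs probesets disagreed on p80HT replicate 3: the brightest read 12.42 there and the second 11.33, each the highest of its 6 values, while the third, annotated to a single transcript accession, read 6.38, the lowest of its 6. Differences were 0.13, 0.10 and -0.54, none past the threshold. Copies of Cycs are annotated as pseudogenes in RefSeq. Probeset coordinates are not given, but the probeset numbers of the members run in blocks by chromosome. The brightest Cflar probeset has a number outside the block of chromosome 1, which holds Cflar. The other Cflar probesets are numbered next to that of Casp8, also on chromosome 1. Of the Cycs probesets, only the third is numbered among those of chromosome 6, which holds Cycs. The locus that each probeset reads was not tested, so the levels of both genes are uncertain.

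**Figure D4:**
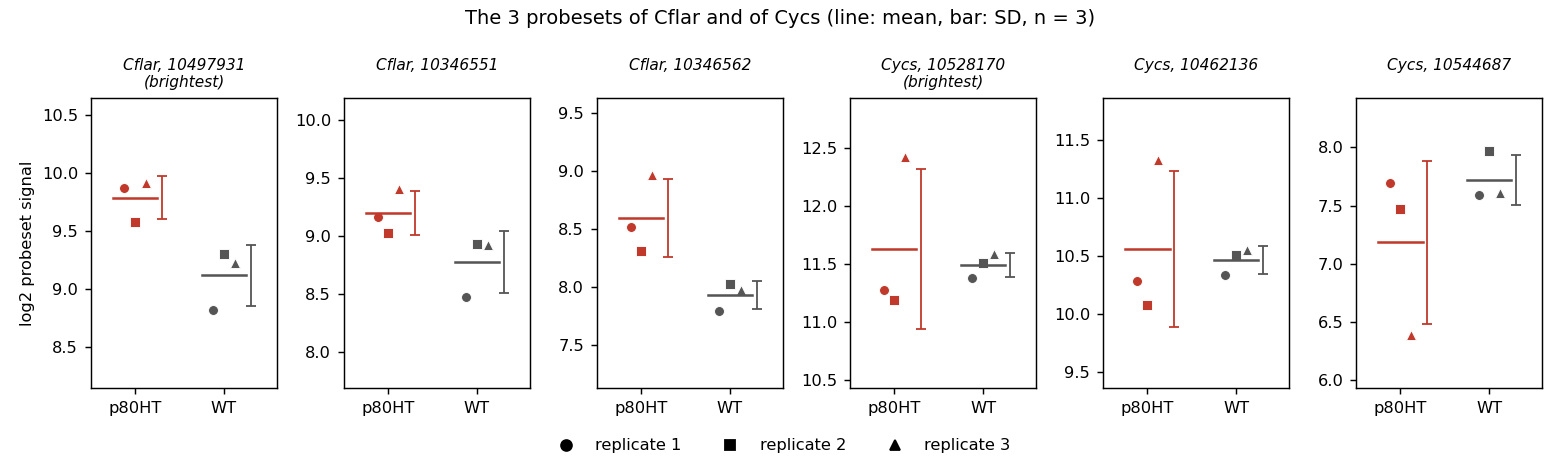
Log2 signal (vertical axis, the same height in log2 units in every panel) of the 3 probesets of Cflar and the 3 of Cycs, 1 point per mouse, p80HT in red left of WT in grey, with means and SDs (n = 3). The Cflar probesets all lie higher in p80HT, and p80HT replicate 3 (triangles) is highest at the first pair of Cycs probesets and lowest at the last.

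Because p80HT is a form of NF-κB2, the promoters of the members were read for the classical κB consensus, a stretch of 10 bases searched on both strands. RefSeq promoters (GRCm38.p6) were matched by symbol for 28 of the 31 listed genes, in 38 windows of 250 bases that end at the start site. A match stood in 3 of the 38 windows, and in 7.3% of all 32851 windows of that length. The 3 were the window of Aifm1 and those of 1 of 3 start sites each of Bbc3 and Bcl2l1. The matches are shown in capitals, as the only ones among the members, with up to 10 bases on each side. None of the 3 genes rose or fell, and Bcl2l1 is the one whose groups did not overlap. A match is a description of letters, not a binding site, and overlapping matches in Bbc3 count once.
Aifm1, chrX:48513706-48513735, minus strand: cctccgggcaGGAGTGTCCCttgtccaggt
Bbc3, chr7:16309436-16309466, plus strand: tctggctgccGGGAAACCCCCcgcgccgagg
Bcl2l1, chr2:152830940-152830967, minus strand: tgtttgtgGGGGGTCTCCagcatacgcc

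The windows of Pawr, Cflar and Bcl2l11, the 3 members with the smallest p-values, held no such match within these 250 bases. They are printed to show the composition of these 3 promoters, with GC boxes (GGGCGG on either strand) in capitals. Pawr had 7 GC boxes and a GC content of 78.4%, Bcl2l11 at the more upstream of its starts 3 and 72.0%, and Cflar none and 42.8%, where the median of all windows was 52.4%. A GC box stood in 25 of the 38 member windows (65.8%) and in 32.7% of all windows.
Pawr, chr10:108331939-108332188, plus strand: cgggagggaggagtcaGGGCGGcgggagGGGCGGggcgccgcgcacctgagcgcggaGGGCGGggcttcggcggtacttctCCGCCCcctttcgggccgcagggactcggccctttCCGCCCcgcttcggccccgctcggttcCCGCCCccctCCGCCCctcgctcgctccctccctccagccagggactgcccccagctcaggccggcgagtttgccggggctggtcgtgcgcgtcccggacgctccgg
Cflar, chr1:58711241-58711490, plus strand: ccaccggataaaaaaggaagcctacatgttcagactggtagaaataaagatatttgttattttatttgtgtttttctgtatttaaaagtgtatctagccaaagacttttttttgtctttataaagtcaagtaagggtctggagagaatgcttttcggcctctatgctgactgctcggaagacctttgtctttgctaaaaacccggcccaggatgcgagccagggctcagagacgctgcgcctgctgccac
Bcl2l11, chr2:128125788-128126037, plus strand: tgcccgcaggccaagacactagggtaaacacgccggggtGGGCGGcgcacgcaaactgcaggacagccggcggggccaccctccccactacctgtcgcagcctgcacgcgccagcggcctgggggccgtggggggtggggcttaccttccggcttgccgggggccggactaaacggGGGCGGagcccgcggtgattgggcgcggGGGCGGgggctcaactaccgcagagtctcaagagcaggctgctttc

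Other genes of the pathway were taken from a list of 40, of which 31 were measured. None rose, 1 fell and 30 did not pass, and the median difference was -0.06. Parp1, which encodes the DNA repair enzyme that caspases cleave during apoptosis, was at 9.96, 9.98 and 9.94 on the p80HT arrays, against 10.44, 10.78 and 10.64 on the WT arrays. The p80HT values lay close together and clear of WT, with a difference of -0.66 and a standard error of 0.13 (limma, unadjusted p = 0.00141, adjusted p = 0.18), and -0.65 without p80HT replicate 3. The call was lost without WT replicate 2. Birc5, which encodes survivin, was at 7.91, 8.32 and 9.01 on the p80HT arrays, against 7.94, 7.74 and 7.68 on the WT arrays. Its p80HT replicate 1 lay within the WT range, and the difference of 0.63 did not pass (unadjusted p = 0.0518, adjusted p = 0.489 in limma) and was 0.33 without p80HT replicate 3. Of the alternatives tried, it was called only without p80HT replicate 1. By qRT-PCR the paper reports survivin as upregulated in p80HT B cells, and as higher still in plasma cell tumor samples. Casp12, an inflammatory caspase of mice, was at 8.61 on p80HT replicate 3 and between 4.95 and 5.06 on the other 5 arrays, and did not pass. Birc3, encoding the NF-κB target c-IAP2, was lower on every p80HT array (11.65, 11.53 and 11.18) than on any WT array (11.77, 11.89 and 11.86), a difference of -0.38 that did not pass, and -0.25 without p80HT replicate 3. In 7 of the 31 genes the groups did not overlap, which is 22.6% beside 20.8% of all genes. Of these 7, 3 were higher on the p80HT arrays, none past the threshold. They were Dapk1 (0.70, and 0.39 without p80HT replicate 3), Casp4 (0.45 and 0.42) and Bcl2l14 (0.61 and 0.20). The 4 lower ones were Parp1, Birc3, Birc6 and Bcap31. Apart from Parp1, the genes named here were chosen for mention after their values were seen.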

How the data were processed

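RNA of B220-selected splenic B cells of 3 p80HT mice and 3 WT littermates was measured on 1-colour Affymetrix Mouse Gene 1.0 ST arrays, 1 array per mouse. The authors deposited log2 probeset signals made with RMA in Partek Genomics Suite, per the labels and the paper's methods. RMA in its standard form corrects background, normalizes quantiles and summarises probes. It compresses differences of dim probesets. Versions and settings are not given in the sources used here. The array medians over all probesets lie between 7.68 and 7.81, and the number of arrays limits the precision. Median centring used the medians over the 19938 genes. These were 7.92 to 7.96 on the p80HT arrays and 7.81 to 7.89 on the WT arrays.

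Of 28853 probesets, 21789 carry 1 gene symbol in the platform table, 1621 several and 5443 none. Only those with 1 symbol were used, giving 19938 genes at the brightest probeset. Genotypes were tested by limma (version 3.58.1, R version 4.3.3, functions lmFit and eBayes, 2-sided, no block), with p-values adjusted over all genes. The members and lists were chosen with earlier results of these data known. The labels give only a genotype and a replicate number, and the paper states 3 mice per genotype. All 6 values are given for members that were called, that did not overlap with a difference of at least 0.3, that were 1.5-fold apart whatever the p, or that are central (Bcl2, Bcl2l1, Mcl1, Bak1, Bcl2l11), and for Xiap, Pmaip1, Casp8 and Dffb, chosen after their values were seen. Marker lists for B cells, T cells, NK cells, macrophages, neutrophils, plasma cells, red cells, glands and stroma were summed on the linear scale. The NK cell, neutrophil, plasma cell and red cell sums on the p80HT arrays were 11.25 to 12.34, 10.96 to 14.51, 13.56 to 13.88 and 10.22 to 11.13, against 10.78 to 11.11, 12.19 to 14.19, 13.68 to 13.96 and 9.41 to 9.57 on the WT arrays (log2). The fit was tested on simulated data. Promoter sequences are from RefSeq (GRCm38.p6). Tables and figures were made with Python 3.11.15, pandas 2.3.3 and matplotlib 3.10.9. Alternatives are given in the closing section.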

Additional observations from a re-analysis of the deposited data

How the results depend on the processing

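Pawr kept its call under all 14 alternatives, between 0.74 and 0.92. The count of members that rose was 1 (Pawr alone) with the replicate block, with the ordinary analysis of variance (Cflar unadjusted p = 0.0224), with median centring (Cflar 0.58) and with the mean of a gene's probesets (Cflar 0.58), and 0 at an adjusted p under 0.05. Over the fits that left out 1 array it was 1 to 2, and that of members that fell 0 to 1. With median centring, which puts the median of all genes at -0.12 in place of -0.02, 1 member fell, Bcl2l11 (-0.67). Cflar was at 0.42 at its second probeset, an alternative chosen after seeing the data, as were the Cycs probesets, where 1 turned the direction (-0.54), and medians without Cflar (survival, 0.14) or Pawr (death, 0.04). The survival median was 0.13 with median centring, 0.077 above the 50th percentile of mean signal, where 4 members are left, and 0.18 to 0.28 over the fits without 1 array. The death median was -0.037 with median centring and -0.028 to 0.087 over those fits. Mcl1 turned to -0.071 without p80HT replicate 1, -0.044 without p80HT replicate 2, -0.048 without WT replicate 1 and -0.074 with median centring, and its highest value without 1 array was 0.17. Bak1 turned to -0.14 without p80HT replicate 3, and its highest value without 1 array was 0.48. Of the other genes of the pathway, 0 to 1 rose and 0 to 1 fell over the fits without 1 array, and 0 fell at an adjusted p under 0.05. The cause of these changes was not tested. The labels do not say whether same-numbered mice were paired. Deviations of same-numbered arrays correlate at 0.074, -0.241 and 0.069 across genes, and those of different-numbered arrays at -0.198 to 0.29. With so few arrays these values cannot decide whether the mice were paired. With the replicate block Cflar was at an unadjusted p of 0.0118 and lost its call, Bcl2l11, not called in either fit, was at 0.0156, and no other call among the members changed.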
